A study of Mus musculus with 30 samples.

Results

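The collagen genes are the family of structural genes whose mouse symbol has the form Col, a number, a and a number. They were found by that name pattern among the protein-coding genes of the deposited table, and their values played no role in the choice. All 44 such genes were listed there, out of 19737 genes in all. They were kept in 3 classes: 11 fibrillar collagens, 8 basement membrane collagens (Col4a1 to Col4a6, Col15a1 and Col18a1) and 25 other collagens.

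The values are DESeq2-normalized read counts of whole-brain poly-A RNA from 30 male C57BL/6N mice, 1 mouse per library and 5 libraries in each of 6 groups. P10 WT and P10 HT mice were untreated 10-day-old wild-type and Arid1b+/- mice, the HT mice carrying a CRISPR Cas9 nickase mutation at exon 5 of Arid1b, a subunit gene of the BAF chromatin remodelling complex. Mice came from crosses of HT males with WT females. The 4 other groups were killed at P120. From P3 to P21 the dams of WT-Flx and HT-Flx mice drank 0.1 mg/ml fluoxetine, a serotonin reuptake inhibitor, in 0.2% saccharin, and those of WT-Veh and HT-Veh mice drank saccharin alone, so every P120 mouse, control groups included, had nursed from a saccharin-drinking dam and no P10 mouse had. Age therefore cannot be told apart from that exposure or from the separate set of libraries.

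Most collagens are secreted proteins, and they consist of 3 chains wound into a triple helix. Fibrillar collagens such as types I and III form the banded fibres of connective tissue, which in the brain is found in the meninges, around larger vessels and in the choroid plexus. Type IV collagen forms the sheet-like network of basement membranes, which wrap every brain vessel and lie under the pial surface. The rest include fibril-associated, microfibrillar, network-forming and transmembrane collagens, some of which, such as Col19a1 and Col25a1, are made by neurons. Chains are hydroxylated, folded and cross-linked by a set of enzymes, bound by integrin and discoidin receptors, and cut by matrix metalloproteinases.

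Summed normalized counts ran from 31578614 to 32445810 in the 10 P10 libraries, from 32484635 to 35542279 in the 10 P120 WT libraries, from 33200684 to 41801037 in HT-Veh and from 37083545 to 41522113 in HT-Flx. They are not read depths, which are unknown, so the spread between mice is the measure of error used here. The labelled tissue was checked on marker lists of 5 genes each, whose sums over the 30 libraries were 89062 to 141606 for neurons, 60041 to 109221 for astrocytes, 86093 to 249409 for oligodendrocytes and 3721 to 7886 for microglia. Arid1b was at 3164 to 3309 normalized counts in P10 WT and at 2162 to 2334 in P10 HT. At P120 it was at 2320 in the library labelled WT-Veh replicate 2 and at 3361 in that labelled HT-Veh replicate 2, each nearer the other genotype, and results that hold these libraries are also given without them where a call or count changes. The library labelled P10 WT replicate 1 stood apart in collagen RNA. Col1a1 was 12759 there against 1731 to 2505 in the 4 other P10 WT libraries, Col1a2 was 10528 against 2436 to 3130, and Col10a1, a cartilage collagen, was 77.4 against 12.1 to 19.3. The same library was high in genes of olfactory epithelium and bone, 2 lists chosen after their values were seen. Ugt2a1 stood at 712.7 against 0 to 14.2 in the 29 other libraries, Cyp2g1 at 465.2 against 0 to 24.2, Ibsp at 352.7 against 0 to 27.7 and Mmp13 at 168.2 against 0 to 9.41. The part of these genes' source in the collagen values of that library was not tested.

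Levels were compared between genes only per kb of the longest protein-coding transcript. In P10 WT the median library had 7885 normalized counts per kb summed over the 44 genes, of which fibrillar collagens held 28.2%, basement membrane collagens 30.9% and other collagens 40.1%. By P120 the sum was lower and the other collagens held most of it. In WT-Veh the median library had 5338 per kb, with 23.0% in fibrillar, 22.8% in basement membrane and 54.2% in other collagens. The share of other collagens ran from 29.0% to 42.0% in P10 WT and from 51.1% to 58.9% in WT-Veh, with no overlap. Col4a1 was the highest collagen per kb in both P10 groups, at 1044 ± 60.05 (SD, n = 5) per kb in P10 WT and 859.4 ± 73.9 (SD, n = 5) in P10 HT. Col6a1, which encodes a chain of the microfibrillar type VI collagen, was the highest in all 4 P120 groups, from 796.7 ± 241 (SD, n = 5) per kb in WT-Veh to 891.9 ± 267 (SD, n = 5) in HT-Flx. The lowest was Col4a3 in P10 WT, at 7.67 ± 0.70 (SD, n = 5) per kb, and Col10a1 in the 5 other groups, from 1.44 ± 0.51 (SD, n = 5) per kb in WT-Veh to 5.05 ± 1.60 (SD, n = 5) in P10 HT. The order in P10 WT rested on replicate 1. Without it Col10a1 was the lowest there too, at 4.78 ± 0.98 (SD, n = 4) per kb, below Col4a3 at 7.41 ± 0.45 (SD, n = 4).

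**Figure D1:**
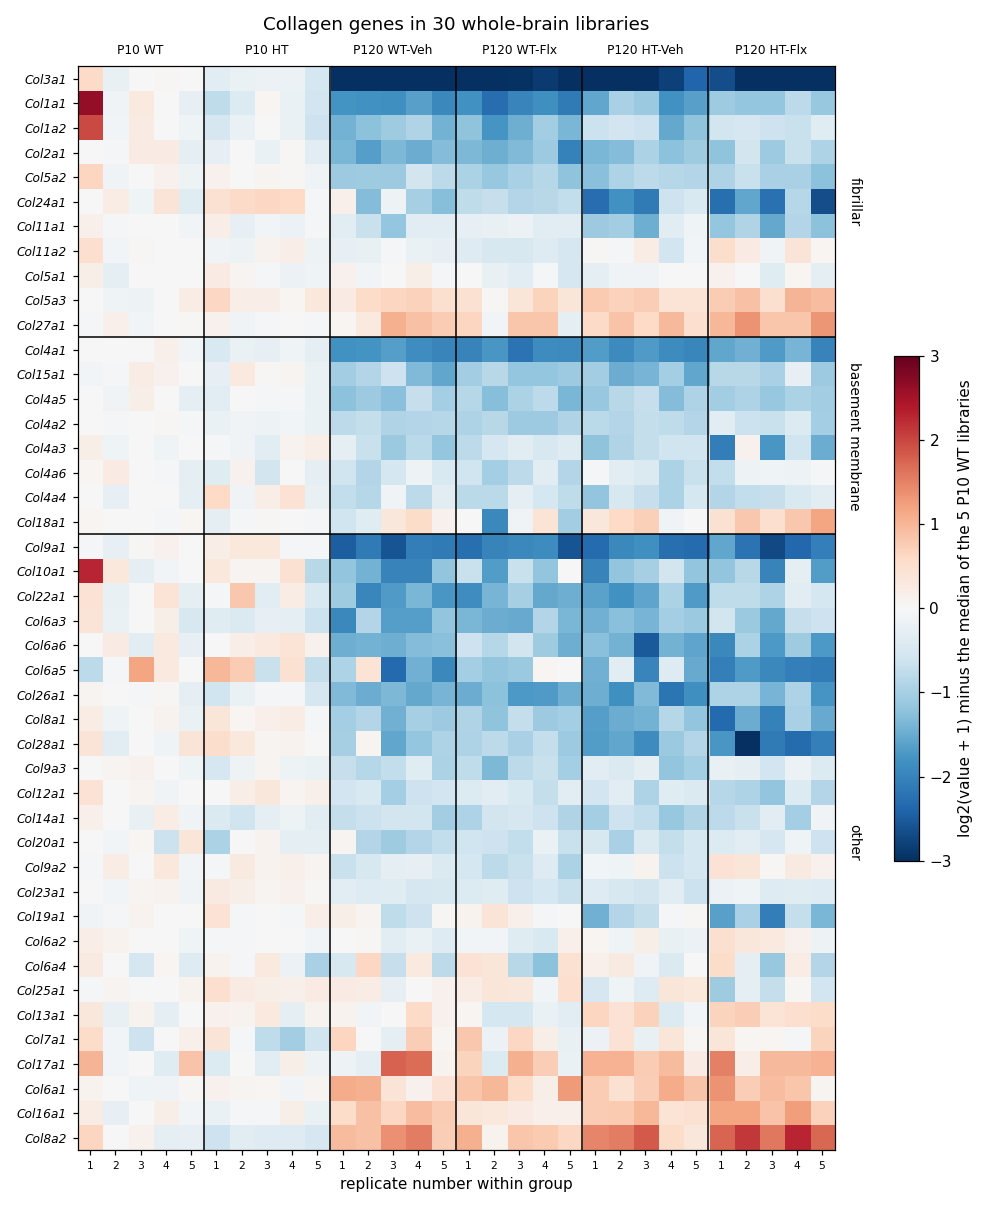
Each row is 1 of the 44 collagen genes and each column 1 of the 30 libraries, ordered by group and replicate number. Colour is log2(value + 1) minus the median of the 5 P10 WT libraries, clipped at 3 in either direction (Col3a1 at P120 lies beyond it). Blue fills most fibrillar and basement membrane rows at P120, red marks Col1a1, Col1a2 and Col10a1 in P10 WT replicate 1, and Col8a2, Col16a1 and Col6a1 are red at P120.

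How the family differs between the brain of the pup and that of the adult was asked in each genotype, P120 WT-Veh against P10 WT and P120 HT-Veh against P10 HT. These comparisons share no library. Most collagen genes were lower at P120. In WT mice 30 of the 44 fell and 5 rose, and in HT mice 26 fell and 5 rose (limma, Benjamini-Hochberg adjusted p under 0.05 over all tested genes). Across all genes tested, 29.4% were lower and 28.9% higher in WT mice, and 25.3% were lower and 25.8% higher in HT mice. Unadjusted p was under 0.05 for 35 of the 44 in each genotype, against 62.8% of all genes in WT and 57.6% in HT mice. Groups did not overlap for 27 members in WT (4 higher, 23 lower) and 26 in HT mice (5 higher, 21 lower), against 45.6% and 40.2% of all genes. Of the members, 25 fell in both genotypes, 4 rose in both, and none rose in one and fell in the other. Without the library P10 WT replicate 1, 26 members fell and 5 rose in WT mice. In the fits with single libraries left out, this one among them, 9594 to 10707 of all genes passed in either direction. With the libraries labelled Veh replicate 2 left aside, the counts were 27 and 5 in WT and 25 and 5 in HT mice, while 10056 and 8221 of all genes passed in either direction. With values adjusted for the GC content and length of each transcript, a correction taken up with the contrast of HT-Flx and WT-Flx, 31 fell and 5 rose in WT and 31 fell and 3 rose in HT mice. Over all genes 10669 passed in WT and 10068 in HT mice under it, in either direction.

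Fibrillar collagens fell in 8 of 11 cases in WT mice, with a median log2 fold change of −0.74 against −0.01 over all tested genes. In HT mice 7 of 11 fell, with a median of −0.74 against −0.02. Col3a1, the chain of type III collagen, fell most. Its normalized counts in replicates 1 to 5 were 2986, 1724, 2005, 2057 and 2005 in P10 WT and 174, 150, 224, 224 and 146 in WT-Veh. In HT mice they were 1608, 1749, 1765, 1776 and 1397 at P10 and 195, 191, 215, 289 and 383 at P120. Every P120 library lay below every P10 library in both genotypes. It changed in WT mice by −3.54 ± 0.16 on the log2 scale (standard error, limma adjusted p = 3.52e-09), and in HT mice −2.75 ± 0.18 (standard error, limma adjusted p = 1.79e-07).

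Col1a1 and Col1a2 encode the chains of type I collagen. For Col1a1 the replicates had 12759, 1908, 2505, 2046 and 1731 normalized counts in P10 WT and 592, 581, 568, 659 and 539 in WT-Veh, so the groups did not overlap with or without the high library. The log2 fold change was −2.32 ± 0.43 (standard error, limma adjusted p = 0.000454), and −1.79 (adjusted p = 1.45e-07, limma) without that library. In HT mice it was −1.04 ± 0.19 (standard error, limma adjusted p = 0.000613), from 1213, 1533, 2140, 1782 and 1366 in P10 HT to 699, 1049, 948, 576 and 664 in HT-Veh. Col1a2 fell by 1.61 on the log2 scale in WT mice, by 1.21 without the high library, and by 0.62 in HT mice, where the groups overlapped. Col2a1, the main cartilage collagen, fell by 1.46 in WT and 1.04 in HT mice. Col24a1 fell in WT (−0.74) and HT mice (−1.90), and Col5a2 (−1.01 and −0.96) and Col11a1 (−0.58 and −0.74) also fell in both. Col11a2 fell in WT mice (−0.28) and did not pass in HT mice (−0.07). Without P10 WT replicate 1, where it was 2487 against 1655 to 1820 in the others, its change in WT mice was −0.18 and no longer passed (adjusted p = 0.0556, limma). Leaving out WT-Veh replicate 1, 2, 4 or 5 ended that call too, with −0.28 to −0.26. The call of Col24a1 in WT mice ended without P10 WT replicate 2 or 4 or WT-Veh replicate 2, 4 or 5, with −0.69 to −0.60.

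Not every fibrillar gene fell. Col27a1, a fibrillar collagen of cartilage, rose in both genotypes, with a log2 fold change of 0.60 (adjusted p = 0.00671, limma) in WT and 0.71 (adjusted p = 0.000265, limma) in HT mice. Col5a3, a chain of type V collagen, rose by 0.53 in WT mice (adjusted p = 0.00129, limma). In HT mice its log2 fold change was 0.32 (95% confidence interval 0.02 to 0.62, adjusted p = 0.0688, limma). Col5a1, another chain of type V, did not pass in either genotype, with 0.06 (95% confidence interval −0.12 to 0.25) in WT and −0.09 (95% confidence interval −0.33 to 0.14) in HT mice.

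**Figure D2:**
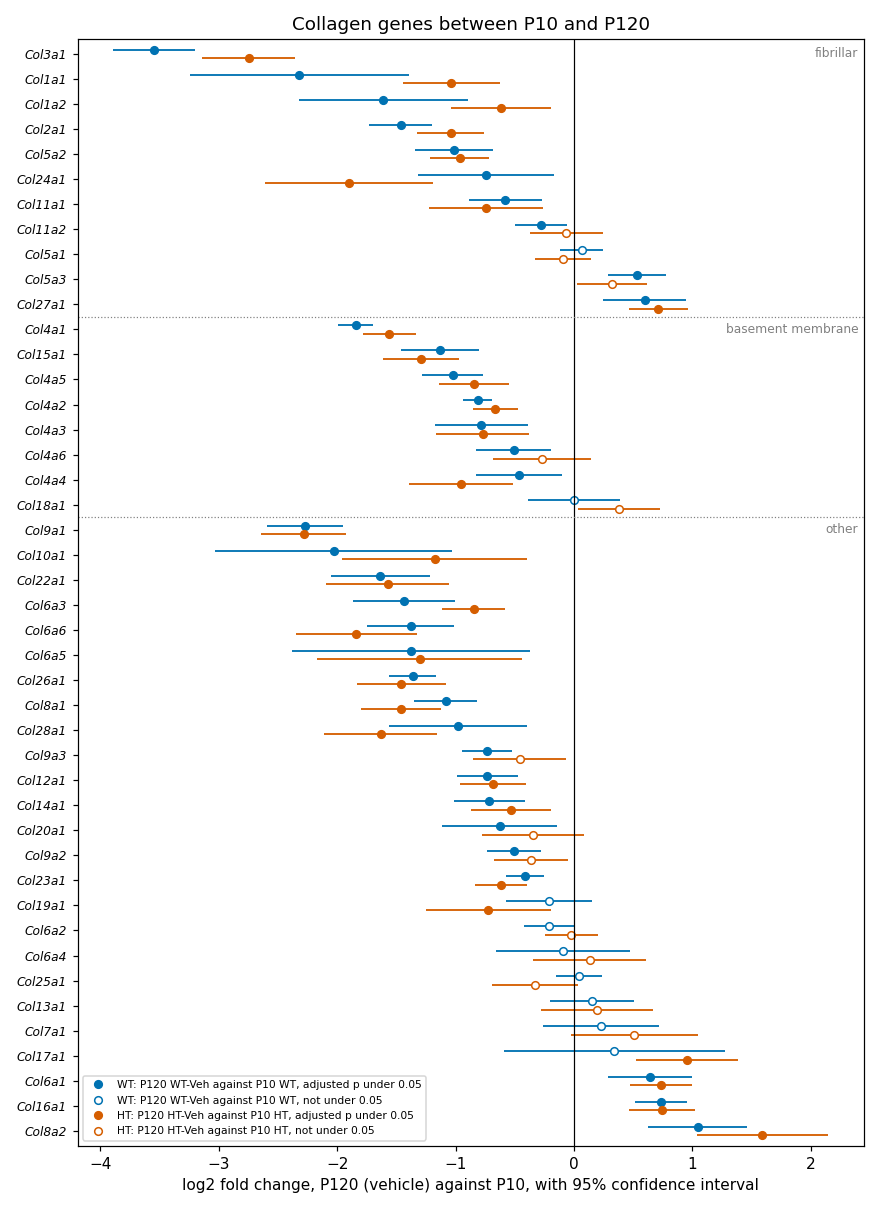
The horizontal axis is the log2 fold change of P120 (vehicle) against P10, with its 95% confidence interval, for WT mice (blue) and HT mice (orange), and each row is a collagen gene grouped by class. Filled points have an adjusted p under 0.05. Most points lie left of 0, from −3.54 for Col3a1 in WT mice, while Col8a2, Col16a1, Col6a1 and Col27a1 lie right of 0 in both genotypes.

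Basement membrane collagens fell in 7 of 8 cases in WT mice (median log2 fold change −0.80) and in 6 of 8 in HT mice (median −0.81). Col18a1, which carries endostatin at its C-terminus, was the member that did not fall in either. Its log2 fold change was 0.00 (95% confidence interval −0.39 to 0.38) in WT and 0.38 (95% confidence interval 0.04 to 0.73, adjusted p = 0.0612, limma) in HT mice. Between mice it varied little at P10, from 1335 to 1423 normalized counts in WT, and more at P120, from 898 to 2004 in WT-Veh and from 354 to 1794 in WT-Flx. Col15a1, which links basement membranes to fibrils, fell by 1.13 in WT and 1.29 in HT mice, and Col4a5 by 1.02 and 0.84. Col4a3 and Col4a4, scarce in brain and best known from the kidney filter, fell by 0.78 and 0.46 in WT and by 0.77 and 0.95 in HT mice. Col4a6 fell by 0.51 in WT mice and had −0.27 in HT mice, short of the threshold. The call of Col4a4 in WT mice ended without any one of P10 WT replicates 1, 3 and 4 and WT-Veh replicates 1, 2 and 4, with −0.44 to −0.39.

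Col4a1 and Col4a2 encode partner chains of the vascular type IV collagen and lie head to head on chromosome 8, where their annotated ends overlap by 22 bp. Reads from that overlap cannot be assigned to 1 gene without strand. Their windows around the transcription start, from 250 bases before it to 50 after it in RefSeq (GRCm38.p6), are shown because the 2 genes start within the same short stretch while their RNAs changed by unequal amounts. The Col4a1 window is chr8:11312777-11313076 on the minus strand, and that of Col4a2 is chr8:11312555-11312854 on the plus strand. Capitals mark the 78 bases the windows share, which read as reverse complements of each other. In each gene 28 of these lie before the start and 50 lie from the start on.
Col4a1: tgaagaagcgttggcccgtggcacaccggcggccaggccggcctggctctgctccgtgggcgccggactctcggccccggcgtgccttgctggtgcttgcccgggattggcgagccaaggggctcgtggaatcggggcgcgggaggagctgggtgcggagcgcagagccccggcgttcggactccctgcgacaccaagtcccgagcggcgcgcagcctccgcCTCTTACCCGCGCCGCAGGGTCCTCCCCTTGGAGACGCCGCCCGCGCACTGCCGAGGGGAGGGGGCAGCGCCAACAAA
Col4a2: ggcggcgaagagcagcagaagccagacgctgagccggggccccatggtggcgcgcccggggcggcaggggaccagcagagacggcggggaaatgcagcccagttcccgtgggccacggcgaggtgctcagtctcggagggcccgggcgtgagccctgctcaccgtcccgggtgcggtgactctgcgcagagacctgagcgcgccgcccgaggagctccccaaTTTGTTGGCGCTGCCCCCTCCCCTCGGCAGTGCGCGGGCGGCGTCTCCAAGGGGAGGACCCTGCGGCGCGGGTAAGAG
GC content was 74.0% in the first window and 73.7% in the second. Both hold the letters CCAAT and GGGCGG on at least 1 strand. Among the 27025 promoter windows of the same table, 37.9% hold CCAAT and 35.9% hold GGGCGG, in each case on either strand. The GGGCGG of Col4a1 and a GGGCGG of Col4a2 are the same bases of the shared stretch, read from opposite strands. TATAAA, held by 14.2% of windows, was in neither, and within a window no 2 matches overlapped. A window was listed for 35 of the 44 collagen genes, of which 13 hold CCAAT, 22 hold GGGCGG and 5 hold TATAAA.

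Both genes fell with age, and Col4a1 fell further. Col4a1 had 6808, 6779, 6893, 7558 and 6482 normalized counts in replicates 1 to 5 of P10 WT and 1938, 1957, 2150, 1864 and 1731 in WT-Veh. Col4a2 had 5611, 5297, 5540, 5665 and 5362 in P10 WT and 3225, 3398, 2942, 3020 and 3080 in WT-Veh. Neither gene's groups overlapped. For Col4a1 the log2 fold change was −1.84 ± 0.068 (standard error, limma adjusted p = 1.06e-09), and for Col4a2 −0.81 ± 0.057 (standard error, limma adjusted p = 1.14e-07). In HT mice they were −1.56 and −0.66, with adjusted p of 1.82e-07 and 5.41e-05 (limma).

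The ratio of Col4a1 to Col4a2, each per kb, was chosen for a look after these values were seen. In replicates 1 to 5 it was 1.18, 1.25, 1.21, 1.3 and 1.18 in P10 WT and 0.586, 0.562, 0.713, 0.602 and 0.548 in WT-Veh. In HT mice it was 1.00, 1.13, 1.12, 1.16 and 1.11 at P10 and 0.662, 0.588, 0.603, 0.549 and 0.570 at P120. The lowest P10 ratio, 1.00, lay above the highest P120 vehicle ratio, 0.713, and the ages did not overlap. The log2 ratio differed between the ages by −1.03 in WT and −0.90 in HT mice (two-sided exact permutation test, p = 0.00794 in each, the smallest that 5 against 5 allow). It was 0.607 ± 0.056 (SD, n = 5) in WT-Flx and 0.600 ± 0.065 (SD, n = 5) in HT-Flx, a log2 difference of −0.02 (exact permutation test, p = 0.857 raw and adjusted over the 15 tests named next).

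Other partner chains were read the same way, also after their values were seen, for 5 pairs in all. The ratio of Col1a1 to Col1a2 per kb was 0.768 ± 0.18 (SD, n = 5) in P10 WT and 0.463 ± 0.054 (SD, n = 5) in WT-Veh, a log2 difference of −0.71 (exact permutation test, p = 0.00794). In HT mice the difference was −0.42 (exact permutation test, p = 0.00794). Col6a1 to Col6a2 went the other way, from 2.22 ± 0.19 (SD, n = 5) in P10 WT to 4.07 ± 0.80 (SD, n = 5) in WT-Veh, a log2 difference of 0.85, and 0.76 in HT mice (exact permutation test, p = 0.00794 in each). Col4a5 and Col4a6, which lie head to head on the X chromosome with 1308 bp between them, had a ratio of 3.51 ± 0.47 (SD, n = 5) in P10 WT and 2.46 ± 0.36 (SD, n = 5) in WT-Veh (log2 difference −0.51, exact permutation test, p = 0.0159). Col4a3 and Col4a4, head to head on chromosome 1 with 71 bp between them, differed between ages by −0.33 in WT and 0.18 in HT mice (log2 ratio; exact permutation test, p = 0.357 and 0.492). Adjusted with the Benjamini-Hochberg method over the 15 tests of these ratios, the largest p among those of 0.00794 became 0.017 and the p of 0.0159 became 0.0298. Between HT-Flx and WT-Flx the ratio of Col4a5 to Col4a6 was 2.10 ± 0.45 (SD, n = 5) against 2.83 ± 0.29 (SD, n = 5), which is −0.45 on the log2 scale (p = 0.0238 by exact permutation and 0.0397 adjusted). That of Col6a1 to Col6a2 was 3.44 ± 0.60 (SD, n = 5) against 4.39 ± 0.56 (SD, n = 5), which is −0.36 on the log2 scale (p = 0.0476 by exact permutation and 0.0714 adjusted). Col1a1 to Col1a2 differed there by 0.12 and Col4a3 to Col4a4 by −0.71 (exact permutation test, p = 0.452 and 0.127). The ratios were not adjusted for GC content, which was 51.45% for Col4a5 and 53.63% for Col4a6. The call of Col4a6 between HT-Flx and WT-Flx ended without certain single libraries, as given with that contrast.

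Neighbouring collagen genes that are not head to head also moved by unequal amounts. Col3a1 (GRCm38, chromosome 1, 45311538 to 45349706, plus strand) and Col5a2 end 24614 bp apart, tail to tail, and both fell. Col9a1 (chromosome 1, 24177610 to 24252684, plus strand) and Col19a1 end 9205 bp apart, and in WT mice Col9a1 fell by 2.27 while Col19a1 had −0.21. Col6a1 and Col6a2 lie on the minus strand of chromosome 10 with 85161 bp between them, and Col6a1 alone rose. No test compared neighbours with other pairs of genes.

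**Figure D3:**
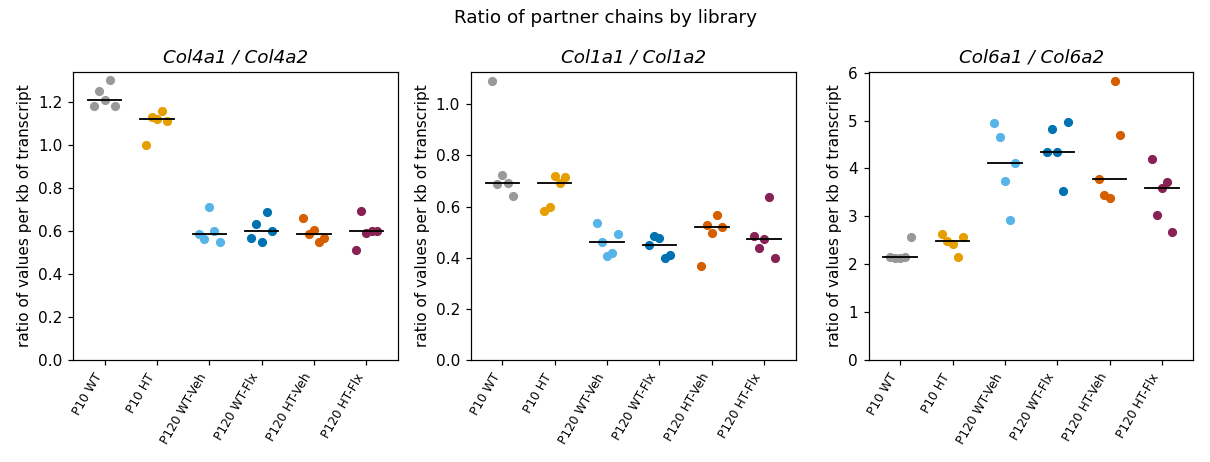
The vertical axis is the ratio of 2 chains' normalized counts per kb of transcript in each of the 30 libraries, from 0, with a line at the group median. The Col4a1 to Col4a2 panel falls from 1.21 in P10 WT to 0.586 in WT-Veh, Col1a1 to Col1a2 falls from 0.694 to 0.462, and Col6a1 to Col6a2 rises from 2.15 to 4.11. The high point of the middle panel is P10 WT replicate 1, at 1.09.

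Among the other collagens 15 of 25 fell and 3 rose in WT mice (median log2 fold change −0.63), and 13 fell and 4 rose in HT mice (median −0.53). Col9a1, a chain of the fibril-associated type IX collagen, fell most. Its values were 140, 120, 147, 156 and 143 in P10 WT and 25, 32, 23, 33 and 32 in WT-Veh, and the log2 fold change was −2.27 ± 0.15 (standard error, limma adjusted p = 6.07e-08) in WT and −2.28 (adjusted p = 3.53e-07, limma) in HT mice. The other chains of type IX moved less. Col9a2 fell by 0.51 and Col9a3 by 0.74 in WT mice, and in HT mice they had −0.36 and −0.46, short of the threshold. Col22a1, Col26a1, Col6a3, Col6a5, Col6a6, Col8a1 and Col28a1 fell by about 1 or more on the log2 scale in WT mice, from 0.98 for Col28a1 to 1.64 for Col22a1. In HT mice the same 7 genes fell too, from −0.85 for Col6a3 to −1.84 for Col6a6. Col10a1 fell in both genotypes, but without P10 WT replicate 1 its mean was below 10 and it was not tested in WT mice. Col12a1 (−0.73 and −0.69) and Col14a1 (−0.71 and −0.53), fibril-associated collagens of tendon and skin, fell in WT and HT mice, and Col20a1 fell in WT mice (−0.63). The call of Col20a1 ended without any one of P10 WT replicates 1, 3 and 5 and WT-Veh replicates 2 to 5 (−0.61 to −0.52), and that of Col6a5 in WT mice without P10 WT replicate 3 (−1.11) or WT-Veh replicate 5 (−1.21). Col6a4, Col7a1 and Col13a1 passed in neither, with log2 fold changes of −0.09 to 0.23 in WT and 0.13 to 0.51 in HT mice. Col23a1, a transmembrane collagen, fell by 0.41 in WT and 0.62 in HT mice. Col25a1, a transmembrane collagen of neurons, did not pass in WT (0.04, 95% confidence interval −0.15 to 0.24) or HT mice (−0.33, 95% confidence interval −0.69 to 0.03). Col19a1, made by interneurons, fell in HT mice alone among the calls (−0.72, adjusted p = 0.0254, limma), with −0.21 in WT mice (95% confidence interval −0.57 to 0.15), and whether the 2 genotypes differ was not tested. Its call in HT mice ended without P10 HT replicate 1 or 5 or HT-Veh replicate 2 or 3, with −0.70 to −0.64.

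The other collagens that rose were few. Col8a2, a network-forming collagen best known from the endothelial membrane of the cornea, had 238, 151, 164, 123 and 128 normalized counts in P10 WT and 291, 279, 393, 436 and 253 in WT-Veh. In HT mice it had 98, 120, 115, 115 and 107 at P10 and 417, 437, 547, 220 and 190 at P120. No P120 library overlapped the P10 libraries of its genotype. It changed in WT mice by 1.04 ± 0.19 on the log2 scale (standard error, limma adjusted p = 0.000488), and in HT mice 1.59 ± 0.26 (standard error, limma adjusted p = 0.000241). Col16a1, a fibril-associated collagen, rose by 0.74 in each genotype, from 1133 ± 149 (SD, n = 5) to 1883 ± 207 (SD, n = 5) in WT mice. Col6a1 rose by 0.64 in WT and 0.73 in HT mice, while its partner chains Col6a2 (−0.21, adjusted p = 0.086, limma) and Col6a3 (−1.44, adjusted p = 4.61e-05, limma) did not rise in WT mice. Under that correction Col8a2 (0.73 and 1.11) and Col16a1 (0.51 and 0.37) still passed in WT and HT mice, while Col6a1 no longer passed (0.37, adjusted p = 0.0866 in WT, and 0.34, adjusted p = 0.117 in HT mice, limma). The same correction ended the call of Col27a1 in HT mice (0.34, adjusted p = 0.122, limma). Col17a1, a transmembrane collagen of epithelia, rose in HT mice (0.95, adjusted p = 0.00151, limma).

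**Figure D4:**
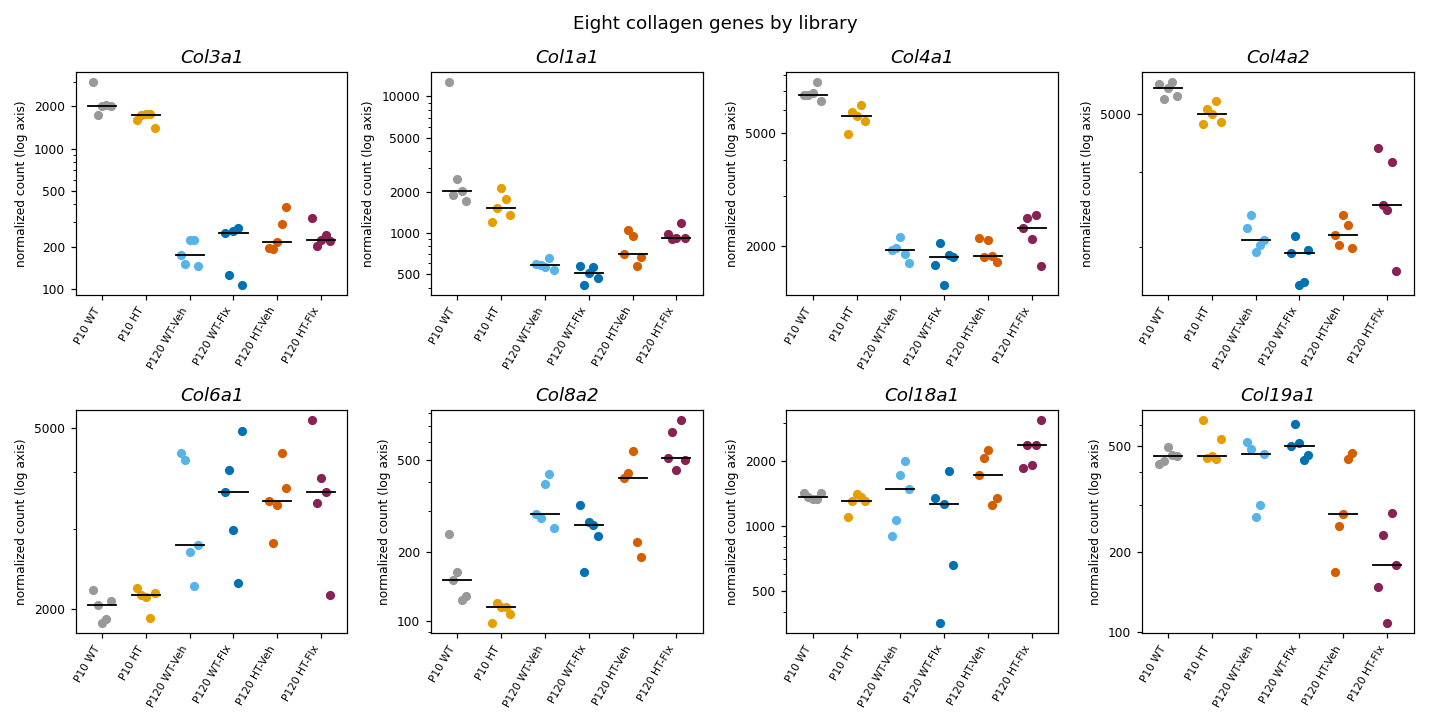
Normalized counts of 8 collagen genes are drawn on log axes, 1 point per library in the 6 groups, with a line at each group median. Col3a1, Col1a1, Col4a1 and Col4a2 drop between P10 and P120, Col6a1 and Col8a2 climb, Col18a1 spreads at P120 (354 to 3088), and Col19a1 is lowest in HT-Flx, at 108 to 280.

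Markers of the cells that hold collagen moved with age too, and their part in these results was not tested. In bulk tissue, fewer cells of a type and less RNA per cell cannot be told apart. In WT mice 7 of 8 choroid plexus markers rose and 1 fell (median log2 fold change 1.53), with a summed level of 11765 to 16047 in P10 WT and 23277 to 34712 in WT-Veh. Of 16 fibroblast and meningeal markers 8 rose and 6 fell, with a summed level of 24148 to 28408 in P10 WT and 33995 to 45960 in WT-Veh. Ptgds, a prostaglandin synthase of the leptomeninges, made up much of that sum, and without it the other 15 summed to 15494 to 18024 in P10 WT and 11297 to 15314 in WT-Veh. Of 10 mural markers 1 rose and 6 fell, summing to 11416 to 12204 in P10 WT and 7363 to 8108 in WT-Veh. Rgs5 had the highest mean of that list, 3528 normalized counts in WT mice, and weighs most in its sum. It fell by 1.53 in WT and 1.52 in HT mice, while Myh11 rose by 0.55 in WT mice. Of 10 endothelial markers 3 rose and 6 fell, with sums of 8539 to 9225 and 8116 to 9734. In HT mice 7 choroid plexus markers rose and 1 fell, 9 fibroblast and meningeal markers rose and 2 fell, 1 mural marker rose and 3 fell, and 3 endothelial markers rose and 3 fell. Summed levels in P10 HT and HT-Veh were 7402 to 12545 and 24879 to 38837 for choroid plexus, 18601 to 24334 and 27446 to 58072 for fibroblasts and meninges, 9978 to 11372 and 7283 to 9349 for mural cells, and 7064 to 8404 and 7997 to 9510 for endothelium. Without Ptgds the fibroblast and meningeal sums overlapped, at 12158 to 15254 in P10 HT and 9177 to 19086 in HT-Veh. No marker of these 4 lists was at 0 in any library, the lowest being Kcne2 at 21.3.

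Genes that work on collagen were given from lists of the pathway. Beside them, 29.4% of all genes were lower and 28.9% higher with age in WT mice, and 25.3% and 25.8% in HT mice. Of 32 synthesis and processing genes 13 fell and 8 rose in WT mice, with a median log2 fold change of −0.14. Lox and Loxl2, which cross-link collagen, fell by 2.91 and 2.00 on the log2 scale, Plod2, a lysyl hydroxylase, by 1.22, and Serpinh1, the collagen chaperone, by 0.82. Pcolce2, an enhancer of C-propeptide cleavage, rose by 1.59, and Adamts2, which removes the N-propeptide, by 0.78. In HT mice 7 of 31 tested fell and 10 rose, and Serpinh1 did not pass (−0.31).

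Of the 20 receptors and breakdown enzymes measured, 11 fell and 3 rose in WT mice (median −0.75), and 10 of 19 tested fell and 5 rose in HT mice (median −0.51). The integrin subunits Itga1, Itga2 and Itgb1 fell by 1.43, 2.09 and 1.17 in WT mice, while Itga10 rose by 0.77 and Itga11 (0.39) did not pass. The collagenolytic proteases Mmp14 and Mmp2 fell by 1.09 and 1.06. The collagen receptor Ddr1 rose by 0.42 and Ddr2 fell by 0.84. Of 15 basement membrane partners 8 fell and 3 rose in WT and 8 fell and 2 rose in HT mice. Nid1 and Nid2, the nidogens that bridge laminin and type IV collagen, fell by 2.81 and 2.30 in WT mice, and the vascular laminin chain Lama4 fell by 1.96. Lamb2 rose by 0.77.

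Genotype at P10 was the first contrast of HT with WT mice, and it shares its libraries with the comparisons by age, as the P120 contrasts share groups with one another. No collagen gene passed the adjusted threshold, and 4 of the 17896 genes tested did, 0.0112% higher and 0.0112% lower. Unadjusted p was under 0.05 for 12 of the 44 members, against 12.6% of all genes, and groups did not overlap for 4 members (1 higher, 3 lower), against 3.12%. The median log2 fold change was −0.08 for fibrillar, −0.09 for basement membrane and −0.02 for other collagens, against −0.01 over all genes. Col4a1 had the lowest p of the family. Its values were 4963, 5940, 5736, 6269 and 5518 in P10 HT against 6482 to 7558 in P10 WT, with no overlap. The log2 fold change was −0.28 (95% confidence interval −0.41 to −0.15, adjusted p = 0.202, limma, and exact permutation p = 0.00794, the smallest possible). Col4a2 was at 4819 to 5269 in P10 HT against 5297 to 5665, a log2 fold change of −0.13 (95% confidence interval −0.21 to −0.05, adjusted p = 0.292, limma). Summed markers of vessel cells were lower as well at P10. Over 10 endothelial markers the sums were 7064 to 8404 in P10 HT against 8539 to 9225 in P10 WT. Over 10 mural markers they were 9978 to 11372 against 11416 to 12204, without overlap in either list. Rgs5 (−0.12) and Vtn (−0.38) had the highest means of the mural list. Slco1a4 (0.11) among endothelial and Myh11 (0.23), Cspg4 (0.07) and Tagln (0.003) among mural markers lay above 0 on the log2 scale, and the others lay below it. The median log2 fold change was −0.15 for endothelial, −0.08 for mural, −0.24 for fibroblast and meningeal and −0.35 for choroid plexus markers. In each of these lists 0 markers passed, and their part in the collagen values was not tested. Col8a2 was the other member whose HT values all lay lower (98 to 120 against 123 to 238). Col25a1 was the member whose HT values all lay higher, with 2355, 1947, 1859, 1844 and 1952 in P10 HT against 1602 to 1773 in P10 WT and a log2 fold change of 0.24 (95% confidence interval 0.10 to 0.38, adjusted p = 0.269, limma).

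Genotype after vehicle was compared at P120 in replicates 1, 3, 4 and 5 of each group, the libraries given in the study's own gene-level results for this comparison. No member had an adjusted p under 0.05, and neither did any of the 17784 genes (0% higher, 0% lower). Unadjusted p was under 0.05 for 0 of 43 members tested, against 1.29% of all genes, and groups did not overlap for 0 members, against 1.04%. Col10a1 was below the minimum mean of 10 in every P120 comparison. The interval of Col4a1 was −0.28 to 0.33 on the log2 scale around 0.02, and that of Col3a1, which had the lowest p, was −0.07 to 0.995 around 0.46. Within HT-Veh, replicates 1 to 3 differed from replicates 4 and 5. Col24a1 had 118, 164, 133, 379 and 426 normalized counts and Col19a1 had 168, 250, 277, 447 and 471. The summed normalized counts of these libraries were 37586145, 35259756, 41801037, 33200684 and 33354198. With all 5 and 5 libraries no member passed.

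Fluoxetine was compared with vehicle within each genotype. In HT mice 0 of 43 members and 0 of 17676 genes passed (0% in either direction), while 11 members had an unadjusted p under 0.05, against 23.1% of all genes. Groups did not overlap for 1 member, against 1.62%. That member was Col22a1, a collagen of tissue junctions, with 122, 122, 109, 168 and 145 normalized counts in HT-Flx and 68, 58, 69, 108 and 63 in HT-Veh. Its log2 fold change was 0.87 (95% confidence interval 0.45 to 1.3, adjusted p = 0.215, limma). When all 6 groups shared 1 fit, 9 members passed, 6 higher and 3 lower, among 5916 genes.

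In WT mice 0 of 43 members and 0 of 17865 genes passed (0% in either direction), with 5 members at an unadjusted p under 0.05 against 25.2% of all genes. Groups did not overlap for 2 members, both lower, against 6.41%. Col16a1 had 1440, 1381, 1331, 1247 and 1242 normalized counts in WT-Flx and 1627, 2049, 1727, 2116 and 1896 in WT-Veh, a log2 fold change of −0.50 (95% confidence interval −0.68 to −0.31, adjusted p = 0.0849, limma). Col11a2, a minor chain of cartilage fibrils, was at 1240 to 1357 in WT-Flx against 1482 to 1730 in WT-Veh, a log2 fold change of −0.26 (95% confidence interval −0.40 to −0.11, adjusted p = 0.0858, limma). After correction for GC content and length its log2 fold change was 0.01.

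Genotype after fluoxetine, HT-Flx against WT-Flx, gave the most calls between genotypes. Of 43 members 17 were higher in HT-Flx and 8 lower. Over all 17799 genes 33.1% were higher and 30.5% lower. Unadjusted p was under 0.05 for 28 members, against 67.2% of all genes, and groups did not overlap for 15 (11 higher, 4 lower), against 48.5%. By class, 6 of 11 fibrillar collagens rose and 2 fell (median log2 fold change 0.44), 4 of 8 basement membrane collagens rose and 0 fell (median 0.29), and 7 of 24 other collagens rose and 6 fell (median 0.15), beside a median of 0.02 over all genes. Of the basement membrane calls, those of Col4a1 (0.33), Col4a2 (0.34) and Col4a6 (0.47) each ended when certain single libraries were left out, with values of 0.26 to 0.34, 0.27 to 0.32 and 0.40 to 0.46 in those fits. Those libraries were HT-Flx replicates 1, 2 and 4 and WT-Flx replicates 1, 3 and 5 for Col4a1, HT-Flx replicates 1 and 4 and WT-Flx replicates 3 and 4 for Col4a2, and HT-Flx replicates 2 to 5 and WT-Flx replicates 2, 3 and 5 for Col4a6.

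These directions went with the base composition of the transcripts. Members that rose had a GC content of 52.3% to 62.9% (median 59.2%), and those that fell had 45.9% to 51.85% (median 48.9%). Across the 43 members, which share libraries and are not replicates, Pearson's r between log2 fold change and GC content was 0.72. With library values adjusted for transcript GC content and length, 15 members passed, 2 higher and 13 lower, and the class medians were −0.08, −0.12 and −0.24. Over all genes 6401 passed in either direction, against 11330 before. Their split by direction is not given, so the 2 higher and 13 lower members are not set against all genes. Library totals moved with the groups as well, the lowest of HT-Flx being 37083545 and the highest of WT-Flx 33588499. Fibroblast and meningeal markers rose in 10 of 16 cases and fell in 3, with sums of 32897 to 40775 in WT-Flx against 47721 to 58194 after fluoxetine in HT mice. Mural markers rose in 5 of 10 cases and fell in 2, with sums of 6984 to 7962 in WT-Flx and 8285 to 10608 in HT-Flx, without overlap. Endothelial markers rose in 3 of 10 cases and fell in 3, and choroid plexus markers rose in 1 of 8 and fell in 2. Of 5 neuronal markers 2 rose and 3 fell (median log2 fold change −0.39), with sums of 120376 to 132036 in WT-Flx and 89062 to 118434 in HT-Flx. Of 5 astrocyte markers 2 rose and 3 fell (median −0.61), with sums of 97513 to 109221 and 60041 to 92818. The sums of neither list overlapped. The part of these in the collagen calls was not tested.

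Col18a1 was the most changed of the higher members, with 1860, 2362, 1922, 2363 and 3088 normalized counts in HT-Flx against 1353, 354, 1257, 1794 and 656 in WT-Flx. Its log2 fold change was 1.29 ± 0.36 (standard error, limma adjusted p = 0.00731), and 0.54 (adjusted p = 0.252, limma) after the correction. Col8a2 had 512, 662, 454, 744 and 502 in HT-Flx against 318, 163, 269, 261 and 234 in WT-Flx, a log2 fold change of 1.21 (adjusted p = 0.000131, limma) before and 0.47 (adjusted p = 0.0353, limma) after it. With Col22a1, at 0.80 before and 0.55 after, Col8a2 was 1 of the 2 members still higher. Col1a1 was at 908 to 1181 in HT-Flx against 419 to 579 in WT-Flx, with log2 fold changes of 0.95 before and 0.20 after (adjusted p = 4.20e-05 and 0.106, limma). Col1a2, Col9a2, Col13a1 and Col16a1 rose by 0.83, 0.91, 0.89 and 0.79 and passed no more once corrected. Col27a1 and Col11a2 rose by 0.68 and 0.66, and their signs turned under the correction, to −0.06 and −0.08.

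Among the lower members, Col19a1 had 147, 232, 108, 280 and 178 normalized counts in HT-Flx against 497, 602, 513, 440 and 463 in WT-Flx, with no overlap. The change was −1.48 ± 0.22 on the log2 scale (standard error, limma adjusted p = 0.000109) before and −1.80 (adjusted p = 0.000169, limma) after the correction. Col28a1, Col6a5, Col24a1 and Col11a1 fell by 1.34, 1.3, 1.14 and 0.88 and passed under it too. Col25a1 fell by 0.80, from 1559 to 2337 in WT-Flx to 780 to 1679 in HT-Flx, and after the correction it had −0.20 (adjusted p = 0.225, limma). Col8a1 and Col12a1 likewise passed only before it, and Col12a1 did not pass without HT-Flx replicate 3 (−0.31). The summed neuronal markers were also lower in HT-Flx, as given above, but of the 5 markers 2 rose and 3 fell. Their part in these lower values was not tested.

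**Figure D5:**
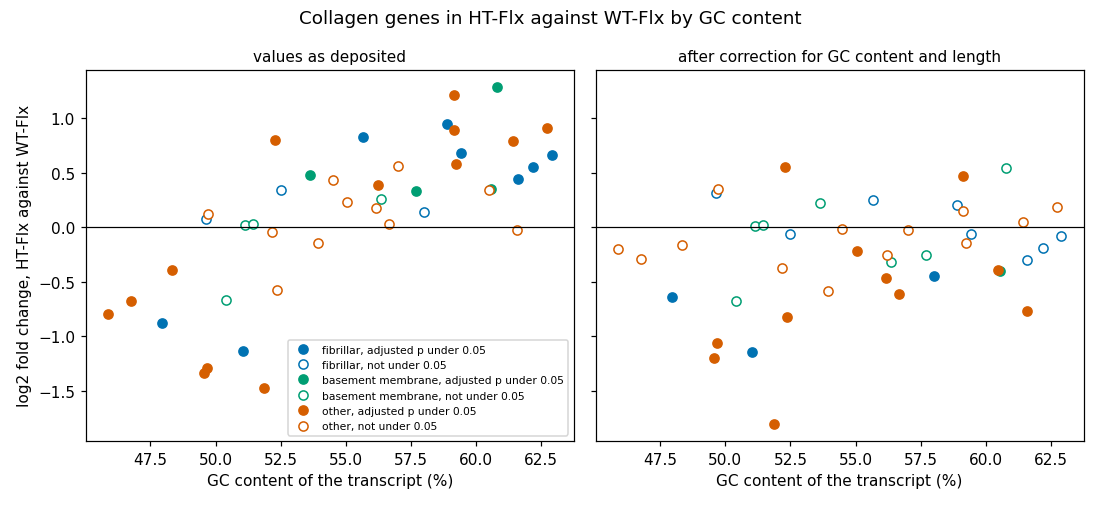
Each point is 1 of 43 collagen genes, with the GC content of its longest protein-coding transcript (%) across and the log2 fold change of HT-Flx against WT-Flx upward, before (left) and after (right) correction for GC content and length. Filled points have an adjusted p under 0.05, and colour gives the class. On the left, filled points below 0 lie under 52% GC and most of those above 0 lie over 55%, while on the right only Col22a1 (0.55) and Col8a2 (0.47) are filled above 0.

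The 18 members that passed in neither direction had log2 fold changes from −0.67 for Col4a3 to 0.56 for Col17a1. Col6a1, the highest collagen per kb at P120, had 0.03 (adjusted p = 0.930, limma) before and −0.62 (adjusted p = 0.0398, limma) after the correction.

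Of the pathway lists in the same contrast, 14 of 31 synthesis and processing genes were higher and 5 lower (median 0.34), 8 of 19 receptors and breakdown genes were higher and 5 lower (median 0.23), and 6 of 15 basement membrane partners were higher and 1 lower (median 0.31). Across all genes 33.1% were higher and 30.5% lower. Hspg2, the heparan sulfate proteoglycan perlecan, rose by 1.02, Serpinh1 by 0.93 and Ddr1 by 1.00. Lox fell by 1.07, Plod2 by 1.27 and Itga1 by 1.03, while their relatives Loxl1, Plod1, Plod3 and Itga10 rose by 1.08, 1.06, 0.85 and 0.75. These list values were not corrected for GC content and length. In the contrasts of genotype at P10, genotype after vehicle, and fluoxetine in either genotype, 0 genes of these lists passed. In the interaction of genotype and fluoxetine 9 synthesis and processing genes were higher and 1 lower, 6 receptors and breakdown genes were higher and 4 lower, and 2 basement membrane partners were higher and 0 lower. Across all genes 15.8% were higher and 11.5% lower. No gene passed the interaction after correction for GC content and length, or with the libraries labelled Veh replicate 2 left aside.

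Whether fluoxetine acted differently in HT and WT mice was tested as an interaction over the 20 P120 libraries. Of 43 members 6 had a higher and 1 a lower response in HT mice, beside 15.8% and 11.5% of 17796 genes, and 18 had an unadjusted p under 0.05, against 45.3%. Col8a2 (1.16), Col16a1 (0.85), Col13a1 (0.77), Col9a2 (0.74), Col11a2 (0.56) and Col1a1 (0.56) were the higher ones on the log2 scale, with adjusted p of 0.0347 to 0.0459 (limma), and Col19a1 was lower (−1.09, adjusted p = 0.0428, limma). Exact permutation of treatment within genotype gave p of 0.000409 for Col16a1 and 0.0190 for Col19a1, unadjusted for the choice of genes. That permutation is exact for no fluoxetine effect in either genotype, and not for an equal effect in both. The calls did not hold in other fits. With the libraries labelled Veh replicate 2 left aside 0 members passed, and after correction for GC content and length 0 of 43 passed, among 0 genes in either case. Leaving out single libraries gave 0 to 12 members, with 0 in the absence of any one of HT-Flx replicate 1, WT-Flx replicates 2 and 3, HT-Veh replicates 4 and 5 and WT-Veh replicates 2, 3 and 4, 3 without WT-Flx replicate 5, 4 without HT-Flx replicate 3, 11 without HT-Veh replicate 1 and 12 without HT-Veh replicate 3. Over all genes 0 to 7667 passed with single libraries left out. Pearson's r between the interaction and GC content was 0.73 across the members, and the 6 higher members had 58.9% to 62.9% GC.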

How the data were processed

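Whole-brain RNA of 30 mice was measured, 5 in each of 6 groups taken from the sample labels. Poly-A RNA (TruSeq) was read as 100-base pairs on a NovaSeq. The authors quantified transcripts with Salmon 1.1.0 on GRCm38 with GC bias correction, used tximport for gene totals, and deposited DESeq2 1.30.1-normalized read counts, used here as a signal that no longer holds whole reads. Depth is therefore unknown and no counting interval is given.

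Values were compared as log2(value + 1) with limma 3.58.1 (R 4.3.3) and an intensity trend, in genes with a mean of at least 10 over the compared libraries, with Benjamini-Hochberg adjustment over all of them and a threshold of 0.05. Fold changes are on that scale, which understates those of low genes. Exact permutation tests over mice were two-sided. The smallest p was 0.00794 for 5 against 5 and 0.0286 for 4 against 4. HT-Veh and WT-Veh were compared in replicates 1, 3, 4 and 5. Symbols were found for 19722 genes (99.92%), and transcript length, GC content and positions came from the GRCm38 annotation. Collagen exons overlapped another gene by over 2% of their length only for Col4a3 (5.65%, C430014B12Rik) and Col9a3 (6.07%, Tcfl5), whose values are uncertain to that extent. The tests were checked on simulated data.

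Collagen genes, lists, tests and named genes (up to 10 called members by size of change, those with the lowest p where none passed, and a few fixed members) were chosen with earlier results of these data known. Alternatives were a pseudocount of 5, no filter, a minimum mean of 100, median-of-ratios rescaling, no trend, the replicate number as a block, all 6 groups in 1 fit, all 5 and 5 vehicle libraries, the Veh replicate 2 libraries left aside, and each library left out. A correction for GC content and length, in which the mean deviation of a library was removed in each of 100 gene bins, was added after the values had been seen, as were the chain ratios and the lists of olfactory epithelium and bone.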

Additional observations from a re-analysis of the deposited data

Results flagged for a closer look

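The 32 collagen genes examined here were the named genes, most of them chosen by size of change or low p in these data. In 6 groups of 5, 13 of 192 groups held a library apart from the other 4. Chance alone sets such a library apart in about 1 in 20 groups, so 13 of 192 is not far from chance. Genes of the same library are also not independent. The test compares the gap to the nearest library with the range of the group. In P10 WT, replicate 1 was apart for Col1a1 (12759 normalized counts), Col1a2 (10528), Col10a1 (77.4) and Col11a2 (2487). This is the library that also held RNA of olfactory epithelium and bone genes.

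In P10 HT, replicate 1 was apart for Col25a1 (2355), and replicate 5 was low for Col10a1 (7.59) and Col24a1 (561). In WT-Veh, replicate 3 was high for Col11a2 (1730) and low for Col12a1 (450). In HT-Veh, replicate 4 was high for Col22a1 (108) and replicate 3 low for Col6a6 (11.2). Replicate 4 was high for Col6a3 in WT-Flx (370) and for Col1a1 in HT-Flx (1181).

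By the interaction test the response to fluoxetine differed between genotypes in 7 of 43 members, beside 15.8% (higher) and 11.5% (lower) of all genes. On the log2 scale it was higher in HT mice by 1.16 for Col8a2, 0.85 for Col16a1, 0.77 for Col13a1, 0.74 for Col9a2, 0.56 for Col11a2 and 0.56 for Col1a1, and for Col19a1 it was −1.09. Adjusted p was 0.0347 to 0.0459 (limma). After the correction for GC content and length, and with the libraries labelled Veh replicate 2 left aside, 0 of these calls held.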

How the results depend on the processing

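Most collagen results by age kept their direction and their side of the threshold under the alternatives, while those among the P120 groups depended on them. Over the results that answer a comparison, 608 alternative values were of the same kind, 33 had moved, 15 were weaker and 8 stronger. For single named genes the numbers were 1580 of the same kind, 146 weaker, 31 stronger and 18 reversed. The cause of these changes was not tested. Depth is unknown, 5 mice per group limit each value, and vehicle exposure and library set cannot be told apart from age.

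With a minimum mean of 100, fewer genes were left, and class medians became −0.92 for basement membrane and −0.41 for other collagens with age in WT mice and −0.36 for other collagens in HT mice. With all 5 and 5 vehicle libraries the median of other collagens between genotypes was 0.059. When all 6 groups shared 1 fit, 9 members passed for fluoxetine in HT mice and 14 for the interaction, among 5916 and 7639 genes. With the libraries labelled Veh replicate 2 left aside 0 members passed for the interaction, among 0 genes.

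Under the correction for GC content and length, medians of fibrillar, basement membrane and other collagens were −0.070, 0.0097 and −0.080 for fluoxetine in HT mice. They were 0.045, 0.060 and 0.17 for fluoxetine in WT mice, −0.085, −0.12 and −0.24 for HT-Flx against WT-Flx and −0.24, −0.071 and −0.20 for the interaction. The median of other collagens with age in HT mice became −0.80. Between HT-Flx and WT-Flx 15 members passed, among 6401 genes, and 0 for the interaction, among 0 genes. Signs turned for Col25a1 with age in HT mice (0.14), Col11a2 with fluoxetine in WT mice (0.011), Col27a1 (−0.061) and Col11a2 (−0.085) between HT-Flx and WT-Flx, and Col11a2 (−0.077) and Col1a1 (−0.078) in the interaction. None of these 6 values passed the threshold. Adding the replicate block left these medians and single-gene values as they were.

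Replicate numbers are shared by the groups, but same-numbered libraries did not deviate together in every pair. The mean correlation of their deviations was 0.179 for HT-Flx with HT-Veh and −0.049 to 0.045 in the other comparisons, and in no comparison did every library correlate best with its own number. With the replicate block, 36 members passed for age in WT mice, 31 for age in HT mice, 24 for HT-Flx against WT-Flx, 8 for the interaction and 2 for fluoxetine in HT mice (both higher, among 1355 genes). Over all genes 10262 passed for age in WT mice, 8403 for age in HT mice, 10621 for HT-Flx against WT-Flx and 5542 for the interaction. The block together with the GC and length correction gave 11 members for HT-Flx against WT-Flx, all lower, among 5273 genes. It gave 1 member for genotype at P10, among 8 genes, and 0 for the interaction, among 0 genes.

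Col18a1 lay at −0.00 with age in WT mice and had the other sign after rescaling (0.00044) and with the Veh replicate 2 libraries left aside (0.092). With single libraries left out it ran from −0.14 to 0.15. In such fits the count of members ran from 31 to 34 with age in WT mice, from 30 to 34 in HT mice, from 21 to 26 between HT-Flx and WT-Flx, from 0 to 12 for the interaction, and from 0 to 2 for fluoxetine in WT mice, where WT-Veh replicate 1 left out gave 2 and replicate 5 gave 1. It stayed at 0 in the other comparisons. Over all genes the counts ran from 9594 to 10707 with age in WT mice and from 8128 to 10177 in HT mice. They ran from 10500 to 11521 between HT-Flx and WT-Flx, from 0 to 7667 for the interaction and from 0 to 1400 for fluoxetine in WT mice. The median of fibrillar collagens with age ran from −0.91 to −0.68 in HT mice, and that of other collagens between vehicle genotypes from −0.060 to 0.084.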
